A study of Mus musculus with 4 samples.

Results

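Chromatin accessibility of 9 contractile genes of myoepithelial cells (Acta2, Myh11, Mylk, Cnn1, Oxtr, Tagln, Myocd, Lmod1 and Srf) was measured in single nuclei of mouse mammary epithelium. The genes were taken for their known part in smooth muscle contraction and the response to oxytocin. The choice was made with earlier results of these data known, so the list is not independent of them. They are 9 of 21887 protein-coding genes for which reads were counted. The nuclei came from wild-type CD1 mice, an outbred stock with no allele or treatment named in the labels. Both stages were sorted as EpCAM-positive, lineage-negative mammary cells, from fetuses at embryonic day 18 or from adults at 8 weeks, with 2 biological replicates each. How many animals made up a replicate was not given in the sources used here. Single-nucleus ATAC-seq was used, in which the Tn5 transposase inserts tags into open chromatin of each nucleus. A gene was scored by the reads over its span plus 2000 bases on either side, called its window. Levels are CPM, the reads of a window scaled to a common total of reads in the same nuclei, which is a measure of open chromatin, not of RNA.

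The 4 libraries held 882 and 1695 fetal and 2465 and 2804 adult nuclei, with 6028168 to 19304830 reads each and library medians of 4420 to 7488 reads per nucleus. No barcode was shared between libraries. The authors' deposited table placed each nucleus in 1 of 14 numbered classes without names, and marker genes apart from the 9 were used to describe them. Class 4 (132 and 338 fetal nuclei) had 5 of 10 basal markers raised, namely Krt5, Krt14, Krt17, Trp63 and Lama3, and is called fetal basal-like. Class 12 (92 and 247 fetal nuclei) had only Krt14 and Trp63 of them raised, together with Myod1 of the skeletal muscle markers, and keeps its number. Adult classes 1 and 8 had 8 and 7 basal markers raised and are called adult basal-like. Classes 5 and 9 (fetal) and 3 and 7 (adult) are called luminal progenitor-like from 3 to 5 of 7 markers, although class 9 also had Krt14 and Krt17 raised. Adult classes 2 and 11 are called mature luminal-like from 5 and 3 of 7 markers. The rebuilt names are not the study's own. Classes with under 20 nuclei in a library are not given for that library.

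Myoepithelial cells are the contractile outer layer of the mammary epithelium and squeeze milk from the alveoli in lactation. Oxytocin binds its receptor Oxtr and raises calcium in the cell, calmodulin then activates the kinase Mylk, and phosphorylated myosin with the smooth muscle heavy chain Myh11 pulls on filaments of smooth muscle actin, Acta2. Calponin (Cnn1), transgelin (Tagln) and leiomodin (Lmod1) bind those filaments, and the transcription factor Srf, with its coactivator Myocd or related factors, binds CArG boxes near many smooth muscle genes.

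RefSeq promoters, from 250 bases before to 50 after the annotated start (GRCm38.p6), were given for 6 of the 9 genes: Acta2, Cnn1, Lmod1, Mylk, Oxtr and Srf. Tagln, Myocd and Myh11 had no entry. A CArG box was searched on both strands, exactly and with 1 C or G allowed among its inner bases, the second search being added after the first had been read. No search for another motif was made, so no overlap with one was scored. Srf held 2 exact boxes, CCATATAAGG and CCATAAAAGG, whose first bases lie 82 and 62 bases before the start. Acta2 held 2 boxes with 1 C or G inside, CCCTATATGG and CCTTGTTTGG, at 84 and 34 bases before the start. An exact box was found in 270 of 17492 promoters of protein-coding genes (1.54%) and a box of either kind in 1710 (9.78%), while 2 or more boxes were found in 144 (0.823%). The other 4 of the 6 held no box of these kinds in these 300 bases. A change in the outer CC or GG was not allowed, so weaker boxes were missed. Lmod1 holds ctttaaaagg and ctaaatttgg, each with a T in place of the second C. How many promoters hold such letters was not counted. Acta2 and Srf are shown for their boxes, in capitals. Lmod1 is shown because its promoter was open in the fetal classes without a box of the kinds searched for. Acta2 is read from the minus strand of chr19:34255324-34255623, Srf from the minus strand of chr17:46556113-46556412 and Lmod1 from the plus strand of chr1:135324563-135324862.
Acta2: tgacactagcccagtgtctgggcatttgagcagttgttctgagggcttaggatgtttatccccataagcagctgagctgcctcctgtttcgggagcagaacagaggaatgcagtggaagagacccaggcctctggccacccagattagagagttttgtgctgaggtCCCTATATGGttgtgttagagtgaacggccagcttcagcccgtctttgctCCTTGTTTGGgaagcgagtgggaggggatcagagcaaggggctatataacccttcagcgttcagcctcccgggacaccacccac
Srf: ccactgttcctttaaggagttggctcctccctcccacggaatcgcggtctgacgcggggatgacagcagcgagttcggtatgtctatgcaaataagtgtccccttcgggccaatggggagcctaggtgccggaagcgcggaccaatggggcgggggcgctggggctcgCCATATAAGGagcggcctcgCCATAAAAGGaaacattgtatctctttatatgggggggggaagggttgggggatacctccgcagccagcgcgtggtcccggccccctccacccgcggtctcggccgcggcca
Lmod1: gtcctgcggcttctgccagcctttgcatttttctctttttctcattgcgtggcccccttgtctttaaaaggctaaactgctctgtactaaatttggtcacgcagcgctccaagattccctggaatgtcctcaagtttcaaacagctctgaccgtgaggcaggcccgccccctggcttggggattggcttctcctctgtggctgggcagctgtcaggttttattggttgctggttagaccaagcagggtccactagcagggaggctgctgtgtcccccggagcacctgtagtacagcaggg

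In fetal basal-like class 4, Acta2 and Tagln were the contractile genes whose windows were more open than in the fetal luminal progenitor-like class 9. In class 12 no window was at least 1.5-fold higher than in class 9 in both libraries. Within 1000 bases of the gene start, where 5 of the 9 had enough reads, Acta2 (3.53-fold and 3.30-fold) and Lmod1 (2.63-fold and 1.85-fold) were higher in class 12 than in class 9, where 2.93% of genes were. By the same count only Acta2 was higher in class 4 (1.78-fold and 3.54-fold, 2.13% of genes), and Tagln was not counted. Oxtr, Myh11 and Lmod1 were, like Acta2, Mylk and Cnn1, the most open in adult basal-like nuclei. In class 4, Oxtr and Lmod1 overlapped with class 9, and Myh11 lay above both class 9 values and below both class 5 values. Mylk in class 4 was only 1.07-fold and 1.16-fold above class 9. Comparisons between classes of 1 stage are descriptions without a test, since the authors made the classes from these nuclei. A window was counted as higher or lower where it differed at least 1.5-fold the same way in both libraries of the stage.

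Acta2 (chr19:34240336-34255585), the actin of the contractile filament, reached 44.3 and 57.9 CPM in class 4 and 38.1 and 90.9 CPM in class 12. The same window held 27.2 and 18.5 CPM in class 9 and 16.1 and 16.4 CPM in class 5. Every library of classes 4 and 12 thus lay above both libraries of classes 9 and 5, and the 2 libraries of class 12 lay far apart. Class 4 was 1.63-fold and 3.13-fold above class 9, while class 12 was 1.40-fold and 4.92-fold above it, so fetal replicate 1 kept class 12 under the threshold. Against class 5, class 12 was 2.37-fold and 5.54-fold higher. Adult basal-like nuclei held more, 114 and 115 CPM in class 1 and 84.0 and 98 CPM in class 8. Mature luminal-like nuclei held the least of the epithelial classes, 9.71 and 9.27 CPM in class 2 and 7.61 and 8.39 CPM in class 11. The order of means ran from adult class 1 (114 ± 0.927, SD, n = 2) through class 8 (91.0 ± 9.87), fetal class 12 (64.5 ± 37.3) and class 4 (51.1 ± 9.64) to adult class 14 (40.4 ± 3.23). Classes 12 and 4 did not differ beyond their spread, nor did class 12 from class 8.

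Tagln (chr9:45929628-45936058), an actin-binding protein of early smooth muscle, had its highest mean in class 4, 38.4 ± 14.2 CPM (SD, n = 2), and of the 9 only Srf also had its highest mean in a fetal class. Its values were 48.4 and 28.3 CPM in class 4, 11.3 and 10.1 CPM in class 9 and 23.2 and 18.6 CPM in class 5. Class 4 was 4.29-fold and 2.81-fold above class 9 and 2.08-fold and 1.53-fold above class 5. Class 12 was split, with 9.53 CPM from 6 reads in replicate 1 and 31.7 CPM from 69 reads in replicate 2, on either side of the class 9 and class 5 values. Adult values of 30.5 and 21.6 CPM in class 1 overlapped those of class 4, while 27.6 and 19.4 CPM in class 8 lay below both of them. None of the authors' regions at Tagln was among those counted as higher in class 4 than in class 9. The window takes in parts of Pcsk7 and Sidt2, whose reads are counted with those of Tagln in these values. The same holds for the windows of Acta2, Myh11, Oxtr and Srf, which overlap Stambpl1, Nde1, Cav3 and Cul9.

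Of the motor and its regulators, Mylk (chr16:34745199-35002436), the kinase of the myosin light chain, had 130 and 137 CPM in class 4, 165 and 148 CPM in class 12 and 121 and 118 CPM in class 9. Class 5 held 114 and 127 CPM, and class 13, of 40 and 66 nuclei and no name, 47.6 and 114 CPM. All of these fetal values lay below the 261 and 267 CPM of adult class 1. In the fetal stromal-like class 6, described by 5 of 7 fibroblast markers, the Mylk values were 117 and 285 CPM, so that class spanned the range. Myh11 (chr16:14194527-14292188), the smooth muscle myosin heavy chain, had 30.9 and 35.4 CPM in class 4, 15.9 and 37.2 CPM in class 12, 25.4 and 26.6 CPM in class 9 and 46.5 and 35.7 CPM in class 5. No fetal class reached the 117 and 122 CPM of adult class 1 or the 141 and 107 CPM of class 8. Cnn1 (chr9:22099221-22109221), which binds actin and slows the myosin motor, rested on few reads. Class 4 held 4.12 CPM (4 reads) and 17.4 CPM (54 reads), class 12 held 9.53 and 10.6 CPM and class 9 held 9.87 and 6.46 CPM, against 46.9 and 39.3 CPM in adult class 1. A count of 3 reads corresponds to 3.09 CPM in the shallower library of class 4 and to 4.77 CPM in that of class 12. This floor reflects depth only and is no interval for a value.

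Oxtr (chr6:112473683-112491035), the oxytocin receptor, had 16.5 and 34.1 CPM in class 4 and 38.1 and 30.3 CPM in class 12, next to 22.9 and 27.2 CPM in class 9 and 30.4 and 34.3 CPM in class 5. Class 4 overlapped both of these luminal classes. Class 12 lay above both class 9 values, by 1.66-fold and 1.11-fold, and overlapped class 5. In adult nuclei the window held 138 and 140 CPM in class 1 and 91.9 and 110 CPM in class 8. It was also open in adult class 14 with 76.2 and 78.5 CPM and in the luminal progenitor-like class 3 with 44.7 and 60.6 CPM. Class 14, of 25 and 59 nuclei, is unnamed, with Pgr and Cited1 raised but no basal marker. Its summed basal markers still reached 819 and 594 CPM, against 481 and 435 CPM in class 3, and its Acta2 values were 38.1 and 42.7 CPM. Oxtr was thus less restricted among adult classes than Acta2, but class 14 does not separate luminal from basal nuclei. Lmod1 (chr1:135324813-135368065), which starts actin filaments in smooth muscle, had 62.8 and 69.2 CPM in class 4, 89.0 and 84.9 CPM in class 12 and 56.8 and 72.3 CPM in class 9. Class 12 was 1.57-fold and 1.18-fold above class 9 and lay level with adult class 8 (90.6 and 85.2 CPM), while adult class 1 reached 185 and 127 CPM.

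Srf and Myocd, the transcription factor and its coactivator, did not follow the filament genes. The Srf window (chr17:46546838-46558267) had 61.8 and 75.0 CPM in class 4, 125 and 78.5 CPM in class 12, 89.6 and 78.7 CPM in class 9 and 76.1 and 84.5 CPM in adult class 1. Its class means ran from 53.6 to 106 CPM. Myocd (chr11:65173608-65269989) had 38.1 and 25.4 CPM in class 4 and 27.0 and 21.1 CPM in class 12, and its highest means were in the mature luminal-like classes 11 (53.4 ± 7.40 CPM, SD, n = 2) and 2 (53.3 ± 5.21). Those luminal reads lay mostly in a distal region described with the regions of the genes.

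**Figure D1:**
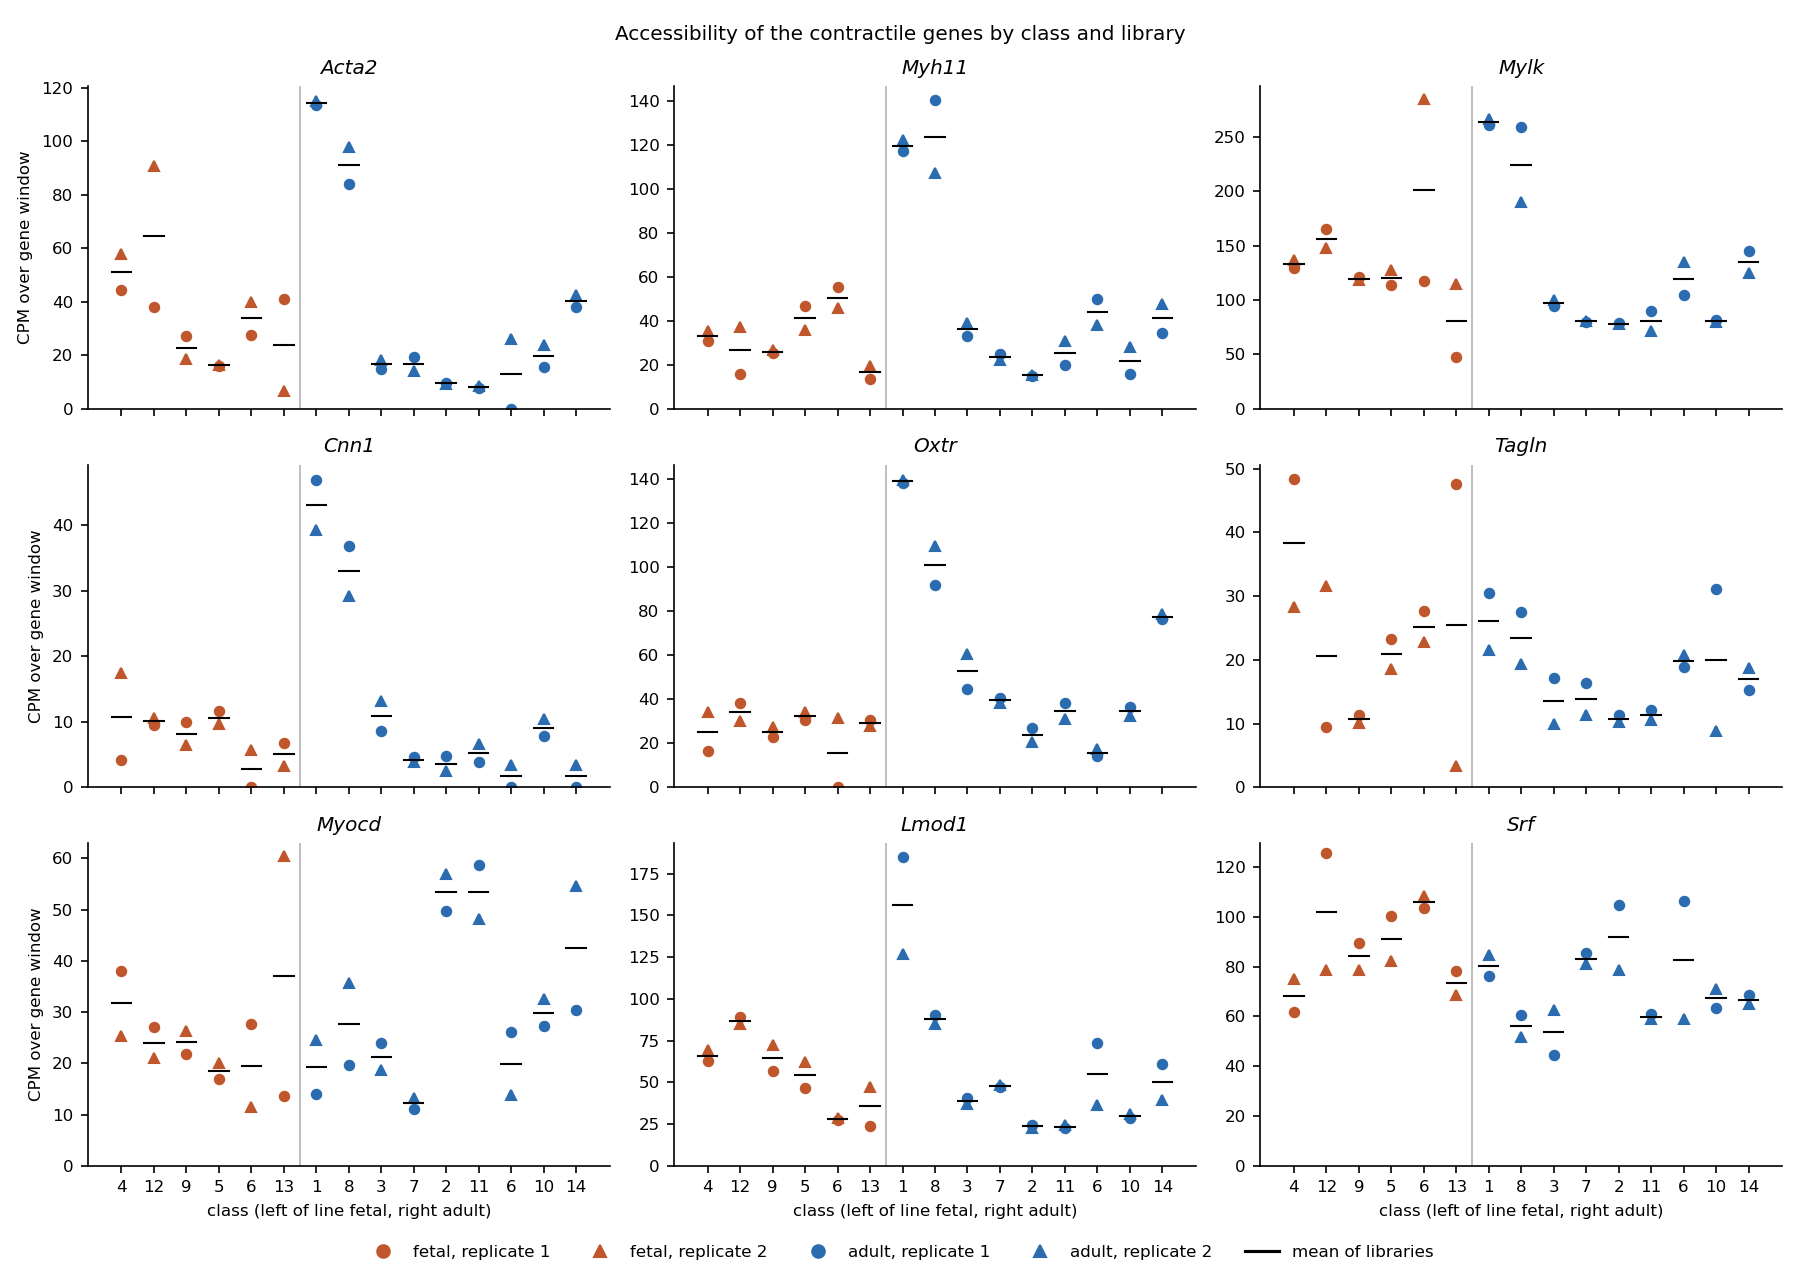
CPM over each gene window by class, with fetal classes left of the line and adult classes right of it, circles for replicate 1, triangles for replicate 2 and a bar for the mean. Acta2 stood at 38.1 to 90.9 CPM in fetal classes 4 and 12, and Myh11, Cnn1 and Oxtr were high in adult classes 1 and 8. Srf class means ran from 53.6 to 106 CPM.

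Per length, the windows could be ranked against all 21887 genes. On the scale of CPM per kilobase, libraries pooled, Acta2 lay above 91.9% of genes in class 4 and 94.9% in class 12, against 65.2% in class 9 and 97.95% in adult basal-like nuclei. Tagln lay above 93.5%, 88.0%, 62.5% and 86.3% in the same order. Srf lay above 96.5% to 97.8% in all 4. Oxtr moved from 76.6% in class 4 and 75.5% in class 12 to 98.3% in adult basal-like nuclei, and Myh11 from 34.1% and 33.4% to 69.4%. Lmod1 (77.2% and 80.4%) and Cnn1 (66.6% and 54.4%) were intermediate in the fetal classes, and Mylk (45.1% and 47.4%) and Myocd (30.1% and 27.2%) lay below the median gene. These ranks lean on the deeper replicate 2. By replicate, Tagln lay above 60.6% and 91.2% of genes in class 12, and Cnn1 above 32.0% and 73.6% in class 4 and 52.3% and 55.5% in class 12, so the order of classes 4 and 12 for Cnn1 turned between replicates. Oxtr in class 4 (57.2% and 80.4%) and Acta2 in class 12 (80.7% and 96.4%) also differed between replicates.

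Counted over all 9 genes, class 4 over class 9 gave 2 windows higher (Acta2, Tagln) and none lower, where 3.51% of the 17096 genes with enough reads were higher and 6.01% lower. Class 12 over class 9 gave none (2.87% of 16903 genes higher, 4.30% lower), and class 4 over class 12 gave none (2.27% of 16011 higher, 3.71% lower). Class 4 over class 5 again gave Acta2 and Tagln (4.62% of genes higher, 9.61% lower), and class 12 over class 5 gave Acta2 alone (2.59% higher, 4.56% lower). In adult nuclei, basal-like over luminal progenitor-like classes gave 7 of 9 higher, against 8.33% of genes: Cnn1 by 7.06-fold and 4.10-fold, Acta2 by 5.64-fold and 6.61-fold, Myh11 by 4.63-fold and 3.79-fold, and Lmod1, Mylk, Oxtr and Tagln by 1.75-fold to 3.14-fold. Over mature luminal-like classes the same 7 were higher (11.1% of genes), with Acta2 at 10.8-fold and 11.95-fold, and Myocd was lower at 0.323-fold and 0.561-fold (15.7% of genes). Adult class 1 over class 8 gave none of the 9, against 11.0% of genes higher and 5.56% lower.

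Single nuclei gave few reads per gene, so each was thinned to 2000 reads before counting nuclei with a read. An Acta2 read was found in 8 of 132 nuclei (6.06%, exact binomial 95% interval 2.65% to 11.6%) and 33 of 338 nuclei (9.76%, 6.82% to 13.4%) of class 4. In class 12 the share was 5.43% and 13.4%, in class 9 it was 4.68% and 3.53%, and in adult class 1 it was 12.9% and 16.7%. The mature luminal-like class 2 gave 0.870% and 1.96%. Without thinning, class 4 gave 12.9% and 19.5%. For Myh11 the thinned share was 3.79% and 3.55% in class 4 and 12.9% and 15.8% in adult class 1, and for Oxtr it was 2.27% and 5.92% against 17.4% and 15.8%. Intervals cover counting error only, since reads of 1 fragment or nucleus are not independent.

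Smooth muscle of vessels shares Acta2, Myh11, Tagln and Cnn1, and whether the sort removed it was not tested. After the sort, the stromal-like class 6 still held 23 and 33 nuclei in the fetal and 82 and 75 in the adult libraries. The summed level of 9 vascular smooth muscle and pericyte markers was 280 and 260 CPM in class 4, 257 and 297 in class 12, 262 and 276 in class 9, and 183 to 221 in adult classes 1 and 8. In the stromal-like class 6 it was 525 and 433 CPM in fetal and 312 and 438 in adult libraries, with Pdgfrb, Abcc9 and Heyl raised. None of the 9 was raised in class 4 or class 12, Mcam was raised in adult class 1 and Rgs5 in class 8. Acta2 in class 6 stood at 33.8 ± 8.68 CPM (SD, n = 2) in fetal libraries, with a range of 27.6 to 39.9 CPM that overlapped class 12 but not class 4. The part of vascular cells in the class values was not tested further.

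Between the stages over all nuclei, the edgeR quasi-likelihood test (Benjamini-Hochberg adjusted p under 0.05 over 18808 genes) called 3 of the 9 windows, where 22.2% of genes were called (11.3% higher and 10.9% lower in fetal nuclei). The stages differ in which classes they hold, so fewer nuclei of a class and less accessibility per nucleus cannot be told apart here. In the same comparison 5 of 10 basal markers were higher in fetal libraries (median 0.35), 5 of 7 mature luminal markers (median -0.80) and 3 of 5 luminal markers were lower, and 2 of 9 vascular smooth muscle and pericyte markers were higher. The part of these shifts in the 3 calls was not tested. Oxtr was lower in fetal nuclei, with 24.9 and 30.2 CPM in the fetal and 45.3 and 53.8 CPM in the adult libraries (log2 fold change -0.83, SE 0.155, adjusted p = 0.00208). Lmod1 was higher, with 56.9 and 69.4 against 47.8 and 46.9 CPM (0.43, SE 0.132, adjusted p = 0.0321), and Myocd was lower, with 24.1 and 25.8 against 32.2 and 36.5 CPM (-0.46, SE 0.149, adjusted p = 0.0411). The groups did not overlap for any of the 3, nor for Mylk, Myh11 and Tagln, which were not called. The share of all genes without overlap was not counted, so nothing particular to these windows follows from it. Lmod1 lost its call without fetal replicate 2 (0.22, adjusted p = 0.461) and Myocd without fetal replicate 1 (adjusted p = 0.200), fetal replicate 2 (0.108) or adult replicate 2 (0.186), while DESeq2 called Oxtr only (Lmod1 0.0673, Myocd 0.0918). Acta2 held 29.5 and 35.8 against 23.5 and 33.4 CPM, which overlapped and was not called (0.21, adjusted p = 0.475). Without adult replicate 2, which leaves 1 adult library, its log2 fold change was 0.52. Myh11 held 29.2 and 31.6 against 34.7 and 45.0 CPM and was not called (-0.39, adjusted p = 0.101). Without adult replicate 1, which also leaves 1 adult library, the change of Myh11 was -0.59. Tagln was not called over its window (0.39, adjusted p = 0.135) and was higher in fetal nuclei over the span without flanks (0.77, adjusted p = 0.0406).

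Among basal-like nuclei, fetal class 4 was set against adult classes 1 and 8. Class and stage coincide here, so a difference of stage and one of class cannot be told apart. The authors made these classes from the same nuclei, so p-values between class sums, here and in the comparisons with class 12 and between lineages, measure only the spread between libraries once the classes are given. The test called 6 of the 9 windows, all lower in fetal nuclei, where 6.16% of 16476 genes were called, 3.18% lower and 2.98% higher. The median log2 fold change of the 9 was -0.85, against 0.00 over all genes tested. Both libraries of each group lay apart from both of the other for all 6. The share of all genes that lay apart in this way was not counted, so nothing particular to the 6 follows from it.

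The receptor Oxtr held 16.5 and 34.1 CPM in fetal and 116 and 125 CPM in adult basal-like nuclei, 4.25-fold lower in fetal nuclei (log2 -2.09, SE 0.249, adjusted p = 2.06e-07). Myh11 held 30.9 and 35.4 against 128 and 115 CPM, 3.52-fold lower (-1.81, SE 0.229, adjusted p = 4.88e-07). For Cnn1 the values were 4.12 and 17.4 against 42.1 and 34.3 CPM (-1.52, SE 0.362, adjusted p = 0.00634). Acta2 was 1.93-fold lower, with 44.3 and 57.9 against 99.7 and 107 CPM (-0.95, SE 0.221, adjusted p = 0.00525). Lmod1 held 62.8 and 69.2 against 141 and 106 CPM (-0.85, SE 0.209, adjusted p = 0.00853). Mylk held 130 and 137 against 260 and 229 CPM (-0.84, SE 0.169, adjusted p = 0.00111). The other 3 were not called: Tagln at 0.61 (SE 0.315, adjusted p = 0.282), Myocd at 0.33 (SE 0.327, adjusted p = 0.641) and Srf at 0.04 (SE 0.223, adjusted p = 0.944).

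Without fetal replicate 1, the calls of Lmod1 (adjusted p = 0.0686), Cnn1 (-1.08, adjusted p = 0.0729) and Acta2 (-0.80, adjusted p = 0.0736) were lost and 3 of 9 were called, and without adult replicate 1 that of Lmod1 was lost (-0.68, adjusted p = 0.0996). Counting within 1000 bases of the gene start gave none of the 5 members with enough reads, with 53 genes called in all, and left Oxtr at -1.23 (adjusted p = 0.158) and Acta2 at -0.69 (adjusted p = 0.340). Without flanks Cnn1 was at -1.07 (adjusted p = 0.131). Basal markers apart from the 9 moved in the same comparison: 4 of 10 were lower and none higher in class 4, with a median of -0.50, and their summed level was 941 and 917 CPM in class 4 against 1493 and 1257 in adult class 1 and 1213 and 922 in class 8. Of the luminal progenitor markers 3 of 7 were higher. Of 8 vascular smooth muscle and pericyte markers tested none was called, with a median of 0.49. The part of these shifts in the contractile genes was not tested.

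With class 12 in place of class 4, an alternative chosen after seeing the data, 4 of the 9 were called lower than in adult basal-like nuclei, where 6.79% of 16165 genes were called, 4.32% lower and 2.47% higher. Myh11 was 4.21-fold lower (15.9 and 37.2 against 128 and 115 CPM; log2 -2.07, SE 0.271, adjusted p = 5.60e-06), Oxtr 3.88-fold (-1.96, SE 0.249, adjusted p = 4.56e-06), Cnn1 3.87-fold (-1.95, SE 0.386, adjusted p = 0.00130) and Mylk 1.66-fold (-0.73, SE 0.168, adjusted p = 0.00541). Acta2 (-0.63, SE 0.256, adjusted p = 0.144) and Lmod1 (-0.58, SE 0.213, adjusted p = 0.0993) were not called. Both comparisons share the adult libraries.

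The stage change of the 6 windows in basal-like nuclei differed from that in luminal progenitor-like nuclei (classes 5 and 9 against 3 and 7). The contrast of both changes, with the library as a term, called 6 of the 9 lower, where 6.84% of 17240 genes were called, 3.92% lower and 2.92% higher. In luminal progenitor-like nuclei Myh11 stood at 31.4 and 29.3 CPM in fetal and 27.7 and 30.3 CPM in adult libraries, and Mylk at 119 and 121 against 85.0 and 90.0 CPM. Lmod1 held 53.9 and 69.3 against 44.7 and 43.0 CPM there, and Acta2 24.0 and 17.9 against 17.7 and 16.1 CPM, so the fetal values of both lay above the adult ones in that lineage. Oxtr was lower in fetal nuclei of both lineages, with 25.0 and 29.3 against 42.0 and 49.2 CPM in luminal progenitor-like nuclei. The difference of the changes was -1.86 for Myh11 (SE 0.282, adjusted p = 1.08e-08) and -1.29 for Mylk (SE 0.183, adjusted p = 7.35e-10). For Tagln (0.57, SE 0.418), Myocd (-0.14, SE 0.399) and Srf (-0.19, SE 0.234) no difference was called. Of the 10 basal markers 8 were lower in the same contrast, with a median of -1.50, so the contractile genes were not alone in this direction. Of the luminal progenitor markers 3 of 7 were higher (median 0.92), and of the luminal markers 2 of 5. The part of these shifts in the calls was not tested.

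**Figure D2:**
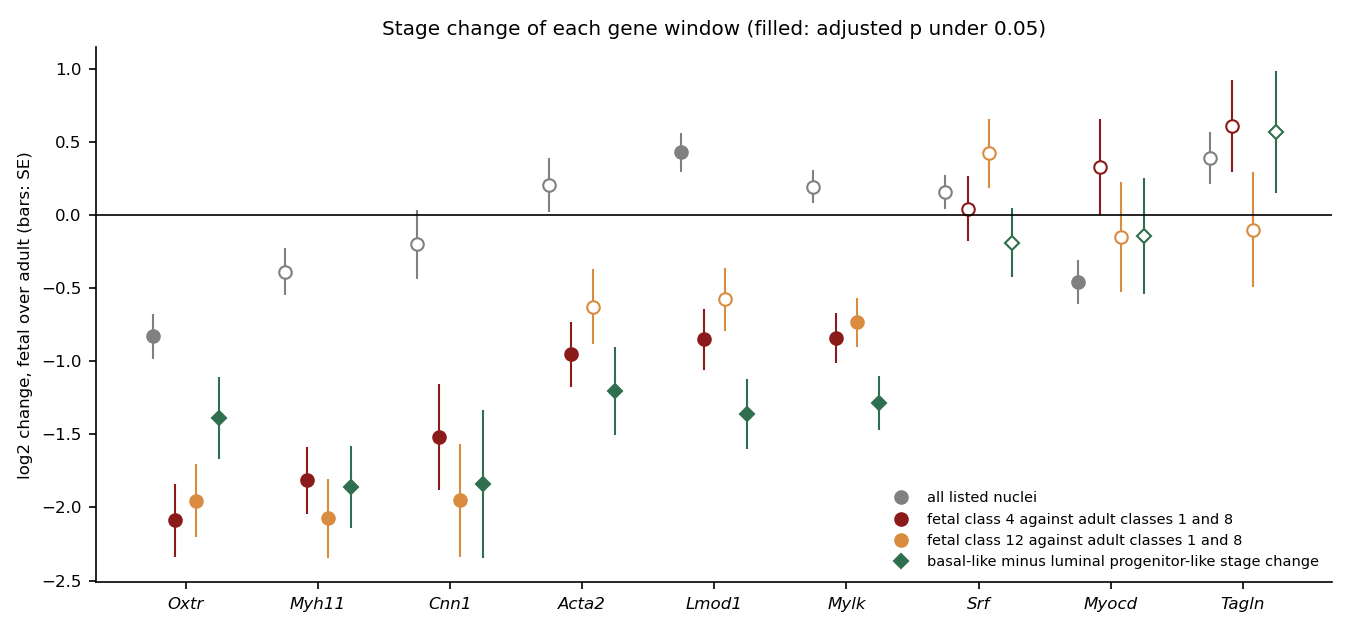
Log2 change of each gene window, fetal over adult, over all nuclei, between basal-like classes, and as the basal-like minus the luminal progenitor-like change; bars are SE and filled points passed an adjusted p of 0.05. In basal-like nuclei 6 genes lay between -2.09 and -0.84, and Tagln, Myocd and Srf lay at 0.61, 0.33 and 0.04 with open points.

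Other genes of contraction and its signalling were counted in 3 lists, beside the 3.18% of all genes lower and 2.98% higher in fetal basal-like nuclei. Of 19 other contractile genes, 18 were tested between the basal-like classes and 2 were lower in fetal nuclei, with a median of -0.18: Synpo2, an actin-bundling protein (-0.94, adjusted p = 0.00156), and Actn1, an actin cross-linker (-0.71, adjusted p = 0.00356). Of 13 partners of Srf and the myocardin-related factors, 2 were lower, Mef2c (-0.69, adjusted p = 0.0418) and Fhl2 (-0.62, adjusted p = 0.0464), with a median of 0.15. Of 21 genes from oxytocin to contraction, 2 were lower, Ppp1r12a, the targeting subunit of myosin phosphatase (-0.89, adjusted p = 0.00142), and Plcb1, a phospholipase C (-0.55, adjusted p = 0.0428). The related phospholipase Plcb4 was higher (0.61, adjusted p = 0.0162), and the median was -0.11. Over all nuclei 2 of the 19 were higher and 4 lower (Cald1 0.85, Cnn2 0.68 and Synpo2 -0.64 being the largest), 2 of the 13 were higher and 3 lower (Elk1 0.63, Mef2a -0.54, Fhl2 -0.42), and 2 of the 21 were higher and 2 lower (Plcb4 0.67, Plcb1 -0.54, Itpr1 -0.49), against the 22.2% of all genes called. The difference of stage changes between the lineages, with 3.92% of all genes lower and 2.92% higher, called 2 of 19 lower (Tpm2 -0.79, Synpo2 -0.68). It called Mef2c lower (-1.43) and Mrtfb (0.68) and Egr1 (0.55) higher of the 13, and Ppp1r12a lower (-0.89) and Gnaq higher (0.47) of the 21.

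The promoters of Acta2 and Lmod1 were more open in both fetal classes than in class 9. In the 300 bases printed above, Acta2 held 12.4 and 16.4 CPM in class 4 and 12.7 and 17.4 CPM in class 12, against 2.12 and 2.40 CPM in class 9. Adult basal-like nuclei held 17.96 and 20.8 CPM and mature luminal-like nuclei 0.348 and 0.978 CPM. All 4 fetal values lay between those of class 9 and those of adult basal-like nuclei. Lmod1 held 4.12 and 5.15 CPM in class 4, 7.94 and 5.97 CPM in class 12 and 1.41 and 2.55 CPM in class 9. These rested on few reads, 4 and 16 in class 4 and 5 and 13 in class 12. A count of 3 reads corresponds to 3.09 and 4.77 CPM in replicate 1 of classes 4 and 12. Adult basal-like nuclei held 9.91 and 7.51 CPM at Lmod1 and adult luminal progenitor-like nuclei 0.426 and 0.194 CPM. The Cnn1 promoter held no read in replicate 1 of either fetal class and 8.69 and 4.59 CPM in replicate 2 of classes 4 and 12. At the depth of replicate 1, a count of 0 does not show that a promoter is closed. The Cnn1 promoter held 6.70 and 2.40 CPM in class 9 and 10.5 and 12.3 CPM in adult basal-like nuclei. That of Oxtr held none and 2.90 CPM in class 4, 1.59 and 1.84 CPM in class 12 and 4.58 and 2.25 CPM in class 9. In adult nuclei it held 6.81 and 8.26 CPM in basal-like and 2.56 and 7.00 CPM in luminal progenitor-like classes, which overlapped. Srf, whose promoter is shown with 2 exact boxes, held 22.7 and 23.8 CPM in class 4, 42.9 and 23.9 CPM in class 12 and 14.2 and 18.5 CPM in adult basal-like nuclei. In class 9 it held 30.7 and 26.1 CPM, above both class 4 values and between those of class 12. Adult luminal progenitor-like nuclei held 25.1 and 23.3 CPM at Srf. The start that the promoter table gives for Mylk lies 39.8 kb inside its span, so these 300 bases stand for 1 inner start of the gene, while for the other 5 the distance was at most 2.105 kb. They held at most 2.79 CPM in these classes, and the outer start was not counted in this way.

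**Figure D3:**
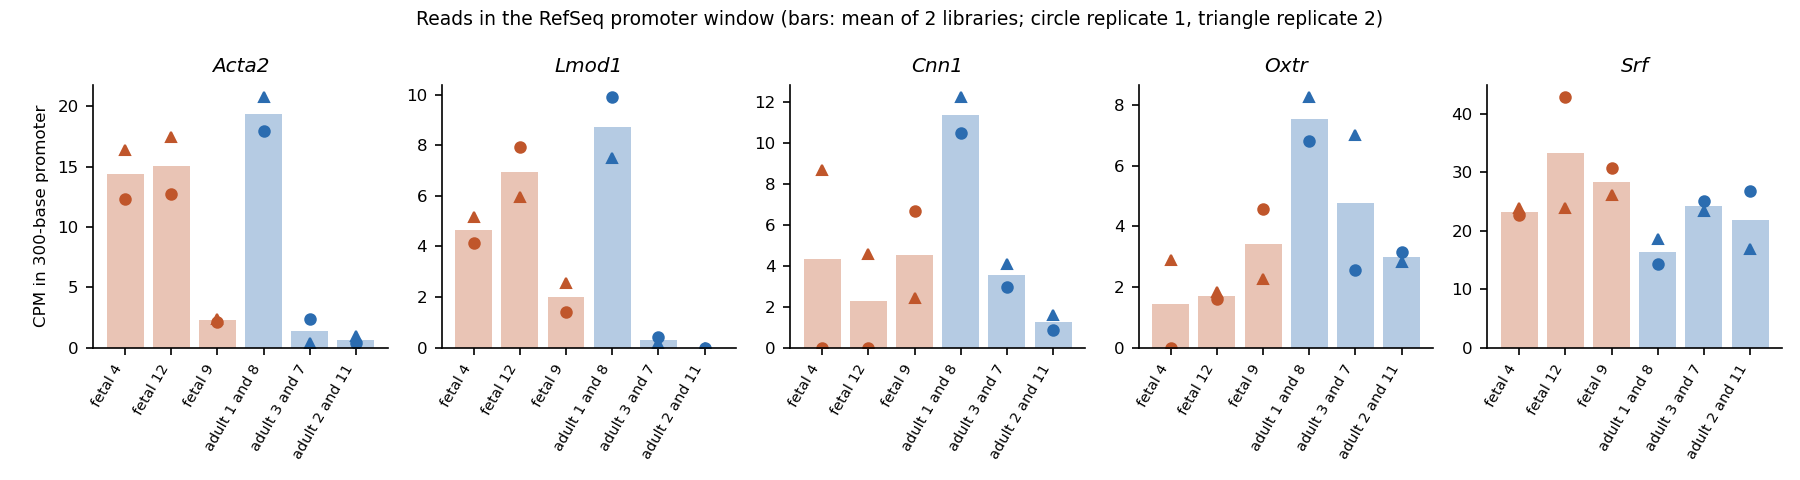
CPM in the 300-base RefSeq promoter of Acta2, Lmod1, Cnn1, Oxtr and Srf, by class group, with bars for the mean of 2 libraries and points for the libraries. Mylk is not drawn. Acta2 stood at 12.4 to 17.4 CPM in classes 4 and 12 and at 2.12 and 2.40 CPM in class 9.

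Of the authors' regions of 1000 bases, 15 promoter and 74 distal regions overlapped the windows. Among promoter regions with enough reads, 2 of 9 were higher in class 4 than in class 9, where 3.07% of such regions were, and 2 of 10 were higher in class 12 (3.91%). In both cases these were the promoters of Acta2 (chr19:34254818-34255817) and Lmod1 (chr1:135323717-135324716). The Acta2 promoter held 20.3 CPM in class 4, 18.2 in class 12, 4.74 in class 9 and 27.6 in adult basal-like nuclei, libraries pooled. A region at the 3′ end of Srf (chr17:46546302-46547301) was lower in both fetal classes (1 of 9 and 1 of 10, with 11.0% and 7.59% of regions lower). That region reaches past the Srf span, and the Srf window overlaps Cul9, so it may not be a promoter of Srf. In adult nuclei 6 of 12 promoter regions were higher in basal-like than in luminal progenitor-like classes (8.05%), namely those of Acta2, Lmod1 and Cnn1, a Myocd region and 2 of Myh11. The Myh11 promoter (chr16:14290855-14291854) held 18.9 CPM in adult basal-like nuclei and 2.94 and 4.63 CPM in classes 4 and 12, close to the 5.06 CPM of class 9.

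Distal regions inside Mylk and Lmod1 were also more open in both fetal classes than in class 9. Of 17 with enough reads, 4 were higher in class 4 than in class 9 (12.5% of distal regions), and of 18, 5 were higher in class 12 (11.6%). In each class 1 region, in Mylk, was lower (17.2% and 20.6% of regions). A region in Lmod1 (chr1:135358281-135359280) held 17.4 CPM in class 4, 27.8 in class 12, 8.22 in class 9, 22.6 in adult basal-like and 0.359 in mature luminal-like nuclei. Over all nuclei it was higher in fetal libraries (log2 1.49, SE 0.268, adjusted p = 2.64e-05), and between basal-like classes no change was called (-0.26, adjusted p = 0.720). Mylk held 2 regions of this kind, chr16:34806828-34807827 (8.33, 13.5 and 3.37 CPM in classes 4, 12 and 9) and chr16:34920634-34921633 (8.33, 16.4 and 2.63 CPM), which held 16.8 and 15.7 CPM in adult basal-like nuclei. A region in Oxtr (chr6:112483867-112484866) was higher in class 12 than in class 9, with 6.05 CPM in class 12, 3.19 in class 4 and 2.95 in class 9, and held 13.7 CPM in adult basal-like nuclei. In adult nuclei 17 of 31 distal regions were higher in basal-like than in luminal progenitor-like classes, against 23.8% of all, and 3 were lower (27.9%).

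**Figure D4:**
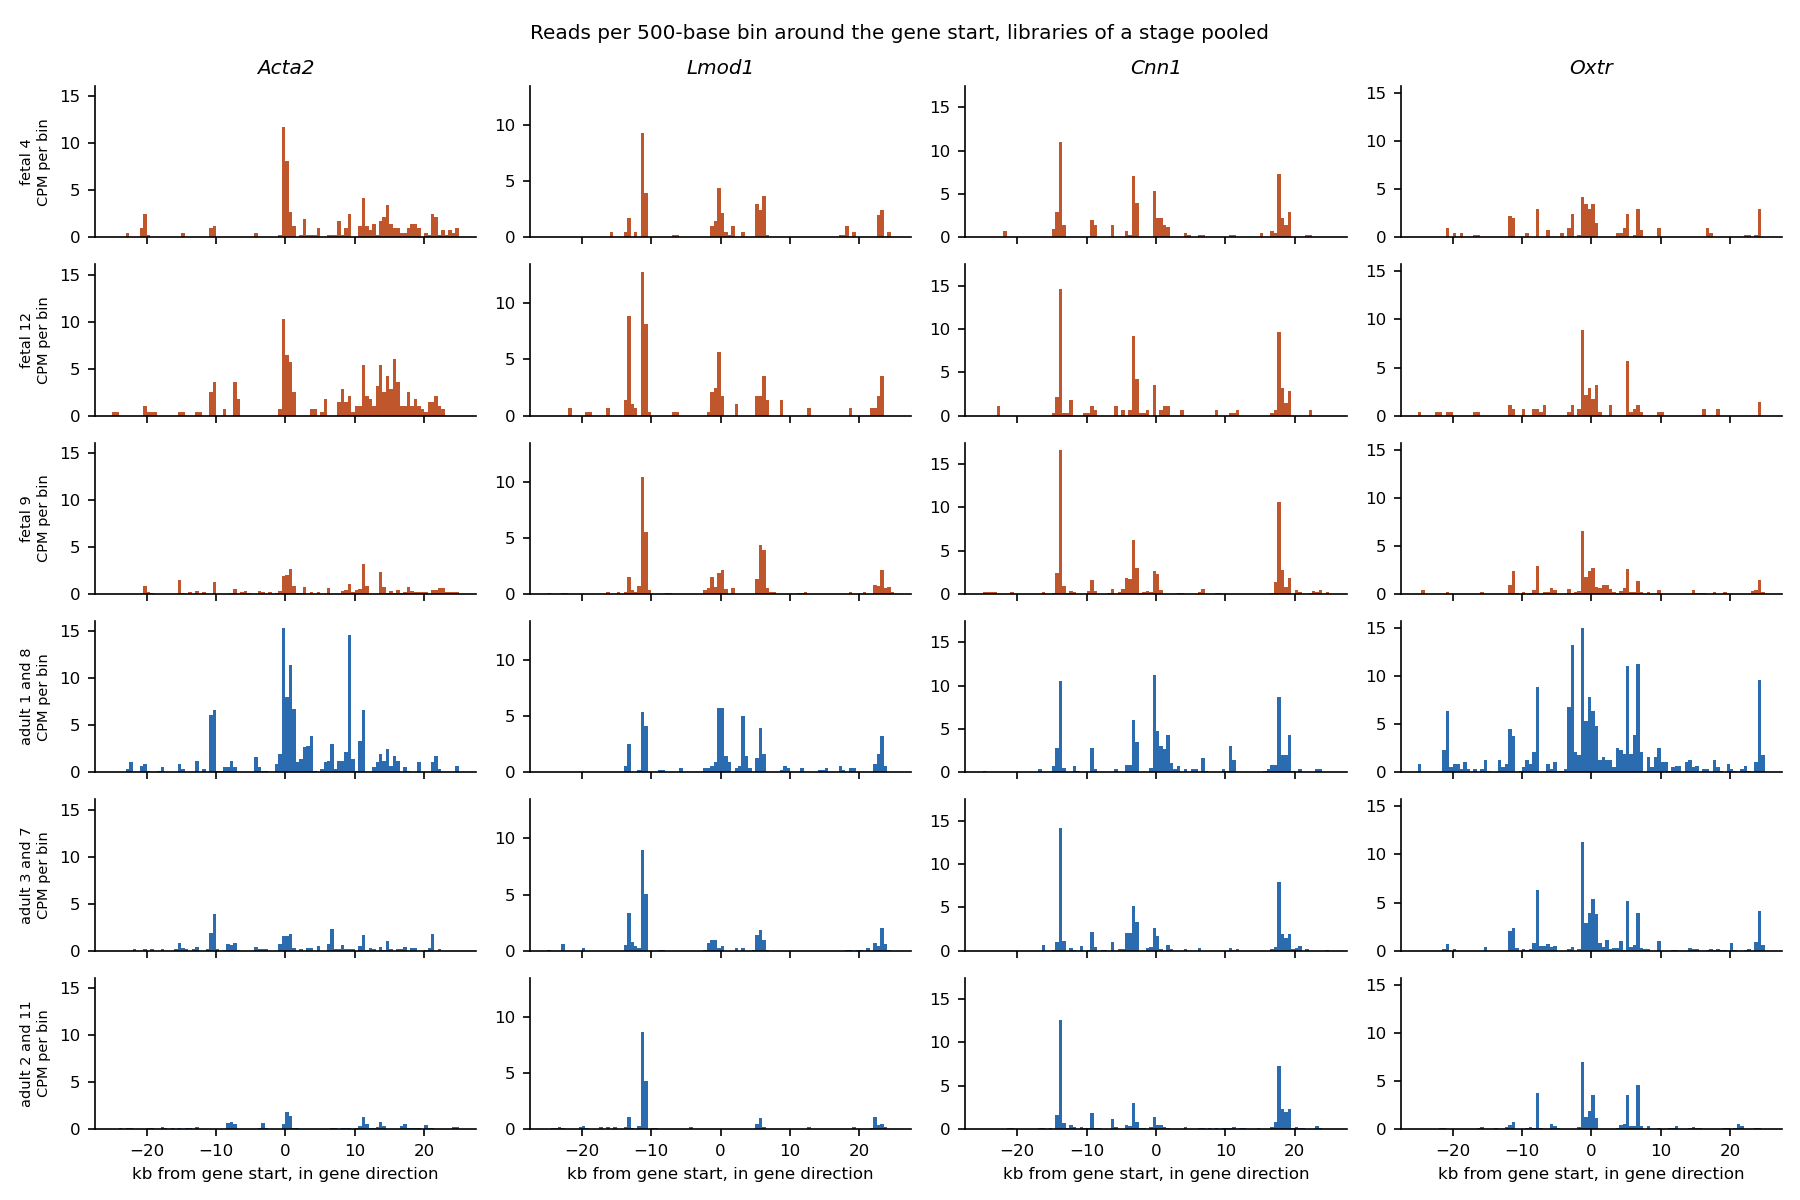
CPM per 500-base bin by distance from the gene start, in the direction of the gene, for class groups in rows with libraries pooled. The peak at the Acta2 start is present in classes 4 and 12, where the promoter region held 20.3 and 18.2 CPM, and is low in class 9 at 4.74 CPM.

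Between the basal-like classes, 22 of the 74 distal regions could be tested and 3 were lower in class 4, none higher (10.8% of 27776 regions called, 5.90% lower and 4.93% higher). One lies outside the span of Oxtr, on its 5′ side (chr6:112492168-112493167), and held 3.43 CPM in class 4, 1.42 in class 12 and 0.632 in class 9, against 21.6 CPM in adult basal-like nuclei (log2 -2.43, SE 0.527, adjusted p = 0.00271). Another lies in Acta2 (chr19:34246144-34247143), with 3.68 and 4.99 CPM in classes 4 and 12 against 15.9 CPM (-2.01, adjusted p = 0.0305). The third lies in Lmod1 (chr1:135366614-135367613), with 9.31 against 24.6 CPM (-1.38, adjusted p = 0.0418). Acta2 and Lmod1 thus had regions higher in class 4 than in class 9 and others lower in class 4 than in adult basal-like nuclei. The reference class differs between these statements. Without adult replicate 1 no distal region of 31100 was called (Oxtr region -2.68, adjusted p = 0.424), and DESeq2 called the Oxtr region only (Acta2 0.431, Lmod1 0.106). The Acta2 and Lmod1 regions also lost their calls without fetal replicate 1 (0.0845 and 0.170).

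Over all nuclei, 8 of 66 distal regions tested were higher in fetal libraries and 13 were lower, where 16.6% and 18.8% of 122865 regions were (35.3% in all). These shares lay near the background. The Oxtr locus held 3 of the lower regions, the one on its 5′ side (6 and 21 fetal against 37 and 96 adult reads; log2 -1.65, adjusted p = 0.00441), chr6:112482574-112483573 (-1.64, adjusted p = 0.000293) and chr6:112483867-112484866 (-0.84, adjusted p = 0.0413). Mylk held regions of both directions, 6 higher and 3 lower in fetal nuclei of 30 tested. Among the higher were chr16:34925820-34926819 (26 and 64 against 12 and 11 reads; 2.57, adjusted p = 5.06e-05), chr16:34865775-34866774 (6 and 32 against 2 and 2 reads; 3.62, adjusted p = 0.00331) and chr16:34957979-34958978 (1.75, adjusted p = 0.000518). Among the lower was chr16:34811790-34812789 (0 and 13 against 47 and 76 reads; -2.69, adjusted p = 0.000237), which held 7.54 CPM in mature luminal-like and 1.07 CPM in adult basal-like nuclei. Of 15 promoter regions tested, 2 were higher and none lower (21.5% of 18570 called, 10.5% higher and 11.0% lower): the Lmod1 promoter (28 and 74 against 27 and 32 reads; 1.36, adjusted p = 0.00546) and a Myocd promoter (chr11:65269432-65270431; 38 and 109 against 9 and 42 reads; 2.13, adjusted p = 1.13e-05). DESeq2 did not call the Myocd promoter (0.0588), and the Lmod1 promoter lost its call without fetal replicate 2 (0.0828).

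Myocd showed different classes open at its promoter and inside the gene. Its promoter held 6.86 CPM in class 4, 7.12 in class 12, 6.53 in class 9 and 6.77 in adult basal-like nuclei, against 0.407 in adult luminal progenitor-like and 0.215 in mature luminal-like nuclei. A distal region inside the gene (chr11:65214962-65215961) held 34.8 CPM in mature luminal-like nuclei and 2.14 to 4.63 CPM in classes 4, 12 and 9 and adult basal-like nuclei. It was lower in fetal libraries (20 and 86 against 239 and 364 reads; log2 -1.94, SE 0.25, adjusted p = 7.62e-08). The lower Myocd window over all nuclei thus held a higher promoter and a lower inner region.

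The authors' deposited Cicero scores say how far 2 regions are open in the same nuclei, pooled over all nuclei of both stages, and so carry no library or stage. At a score of at least 0.25, 14.6% of all promoter regions and 14.6% of all distal regions had a link, and the regions of the 9 genes had 64 linked pairs. Of the regions of Oxtr 5 of 7 had a link (71.4%, 23 pairs), of Acta2 3 of 6 (5 pairs), of Lmod1 4 of 10 (14 pairs), of Srf 2 of 5 (3 pairs) and of Myocd 2 of 7 (4 pairs). Myh11 with 2 of 10 (4 pairs) and Mylk with 7 of 38 (18.4%, 11 pairs) lay near the background, and Cnn1 and Tagln had none over 2 and 4 regions. The strongest of Oxtr joined its 5′ region to chr6:112543948-112544947, 51.8 kb away (0.571). That partner held 1.47 CPM in class 4 and 18.5 CPM in adult basal-like nuclei, and was lower in class 4 (log2 -3.56, adjusted p = 0.000674). The partners at chr6:112510051, chr6:112587415 and chr6:112584316 were lower too (-3.12, -3.91 and -4.21, adjusted p = 0.0228, 0.00194 and 0.00380), with 0.980, 0.735 and 0.490 CPM in class 4 and 8.38, 15.3 and 12.8 CPM in adult basal-like nuclei. In all, Oxtr had 7 linked partners outside its own regions, of which 6 could be tested and 4 were lower in class 4, where 5.90% of distal regions were. The other 2 were not called. Partners are chosen for being open in the same nuclei as the Oxtr regions, so their direction is no independent result. Of 6 tested partners of Lmod1 none was called, and of 2 of Acta2 1 was lower.

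In Acta2 the inner region chr19:34246144-34247143 was linked to the promoter (0.416, 8.67 kb) and to chr19:34265223-34266222 (0.449, 19.1 kb). That partner was lower in class 4 than in adult basal-like nuclei (-2.51, adjusted p = 0.0157). The promoter was higher in class 4 than in class 9, which is a different comparison. In Lmod1 the promoter was linked to the region open in the fetal classes, chr1:135358281-135359280 (0.448, 34.6 kb), which in turn was linked to chr1:135158102-135159101 (0.444, 200 kb) and to a region in Csrp1, another smooth muscle gene (0.328, 376 kb). The partner at chr1:135158102 held 8.58 and 14.2 CPM in classes 4 and 12 and 3.39 CPM in adult basal-like nuclei (basal-like change 1.61, adjusted p = 0.108, not called). The 2 fetal-open regions of Mylk, 114 kb apart, were linked to each other (0.449). The Myh11 promoter was linked to a region in Abcc1 (0.328, 89.1 kb) and to the Snai2 promoter (0.311, 414 kb), and the inner region of Myocd to one in Elac2 (0.637, 228 kb), which held 13.4 CPM in mature luminal-like nuclei.

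The deposited chromVAR score gives, per nucleus, how far regions holding a motif were more open than in a background, and is centred near 0. The Srf motif scored 0.124 and 0.148 on average in the fetal and -0.114 and -0.0153 in the adult libraries (difference 0.20, SE 0.0528, limma adjusted p = 0.0196), where 67.9% of 427 motifs were called, 32.3% higher and 35.6% lower in fetal libraries. The call was lost without fetal replicate 2 (0.19, adjusted p = 0.0679) and without adult replicate 1 (0.15, adjusted p = 0.143). By class the mean was 0.280 and 0.293 in class 4, 0.154 and 0.224 in class 12, 0.126 and 0.0736 in class 9 and 0.0219 and 0.0747 in class 5. Adult basal-like classes had 0.310 and 0.442 (class 1) and 0.215 and 0.289 (class 8), and mature luminal-like class 2 had -0.322 and -0.314. The Srf motif score of class 4 therefore lay in the range of the adult basal-like classes, above both libraries of classes 9 and 5. The Mef2a (0.44, adjusted p = 0.000379), Mef2c (0.36, adjusted p = 0.000897) and Mef2d (0.30, adjusted p = 0.00326) motifs were higher in fetal libraries, and Tead4 (0.06, adjusted p = 0.604) was not called. These stage means are over all nuclei, and the stages differ in which classes they hold. Class 2, for example, held 805 and 714 adult but 1 and 2 fetal nuclei. A change within classes and one in class shares cannot be told apart in the motif calls. The Mef2c score did not follow that of Srf, with -0.0894 and -0.0611 in class 4, 0.100 and 0.179 in class 12, 0.288 and 0.293 in class 9 and 0.430 and 0.464 in class 5, so class 4 was the lowest of these fetal classes. Mef2a likewise stood at 0.0550 and 0.0534 in class 4 and at 0.306 and 0.330 in class 9.

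**Figure D5:**
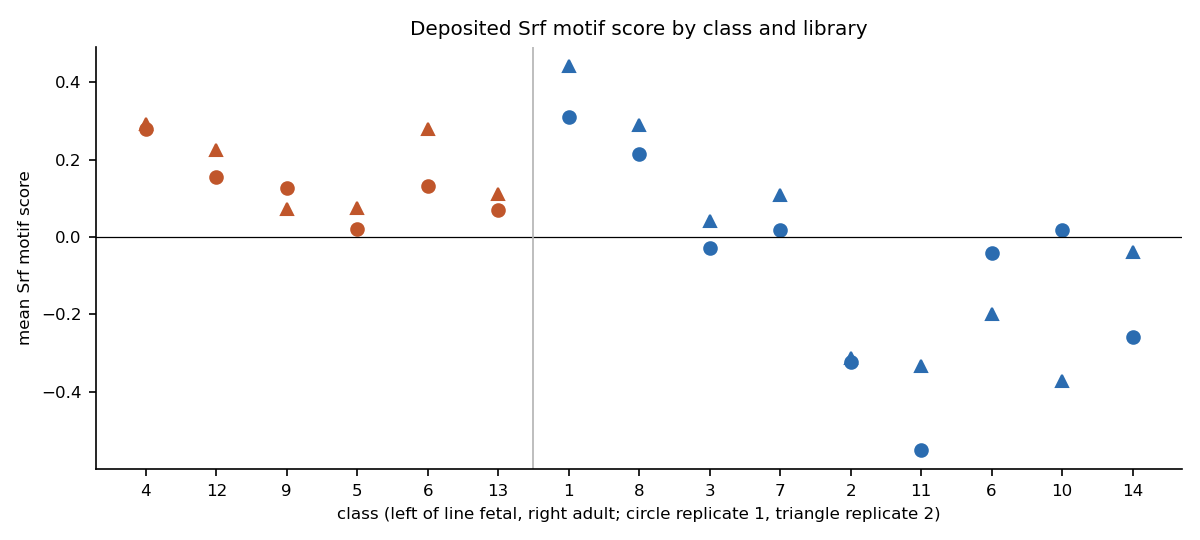
Mean deposited Srf motif score by class and library, fetal classes left of the line. Class 4 (0.280 and 0.293) and adult classes 1 and 8 (0.215 to 0.442) were high, and adult classes 2 and 11 were below 0 in both libraries.

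Across the 14 classes, libraries pooled, the mean profile of the 9 genes was matched against 14774 genes by Pearson's r of log2(CPM + 2), as a description over points that share libraries and depth. The 5 genes outside the list most like it were Moxd1 (0.958), Slc35d1 (0.951), Acad11 (0.945), Xrcc5 (0.939) and Plxna4 (0.934). Each of the 9 was set against the mean of the other 8. Acta2 (0.925), Mylk (0.914), Lmod1 (0.857) and Myh11 (0.814) followed it most closely. Cnn1 (0.693), Tagln (0.602) and Oxtr (0.599) came next, and Srf (-0.17) and Myocd (-0.35) did not follow it. Between Tagln and Oxtr r was 0.23, the lowest among the filament, motor and receptor genes.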

How the data were processed

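Reads of each kept nucleus were taken from the authors' deposited lists of read positions, which hold 1 read per line with its barcode. Per the submitters' processing notes, Bowtie2, MACS2 and bedtools were used with mm10, and neither their versions nor any handling of duplicates or cut positions is given in the sources used here. The authors' deposited motif table gives chromVAR scores with class numbers and a count of reads per nucleus, and the deposited Cicero table gives a co-accessibility score per pair of regions. The deposited gene accessibility scores name no sample and were not used.

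Read counts were summed per gene window or region, class and library (overlap of at least 1 base, Python 3.11.15, numpy 2.4.6, pandas 2.3.3). The spans and promoters are RefSeq's, GRCm38.p6. Features averaging fewer than 10 reads were dropped, and counts were tested with edgeR 4.0.16 (quasi-likelihood, TMM) in R 4.3.3, motif scores with limma 3.58.1. Benjamini-Hochberg adjustment ran over all features, and an adjusted p under 0.05 was called. The SE is the log2 fold change over the square root of F. DESeq2 1.42.0, other filters, windows, scalings and left-out libraries were alternatives. The fits were tested on simulated data. Figures used matplotlib 3.10.9.

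A marker was raised in a class where it held at least 3 reads and 1.5 times the mean CPM of the other classes of the stage, in both libraries. All 9 genes were named, with some of their called regions, some of their links at a score of at least 0.25, and at most 3 genes per list by largest called change. Members and lists were chosen with earlier results of these data known. No doublet caller was run.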

Additional observations from a re-analysis of the deposited data

Results flagged for a closer look

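The stage change of 6 genes differed between basal-like and luminal progenitor-like nuclei in the test of the difference itself (edgeR quasi-likelihood, library as a term). On the log2 scale, the fetal over adult change was lower in the basal-like nuclei by these amounts: -1.86 for Myh11, -1.84 for Cnn1, -1.39 for Oxtr, -1.36 for Lmod1, -1.29 for Mylk and -1.20 for Acta2. The adjusted p was 1.08e-08 for Myh11, 0.00758 for Cnn1, 7.24e-05 for Oxtr, 1.20e-06 for Lmod1, 7.35e-10 for Mylk and 0.00217 for Acta2. Cnn1 lost its call without the library term (-1.76, adjusted p = 0.0726), without fetal replicate 1 (-1.13, adjusted p = 0.295) and without adult replicate 1 (-1.50, adjusted p = 0.201). Acta2 lost its call without fetal replicate 1 (-0.89, adjusted p = 0.121) and without adult replicate 2 (-1.09, adjusted p = 0.103).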

How the results depend on the processing

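Each stage held 2 libraries, and class sums of the shallower fetal library held 629493 to 971201 reads for classes 12 and 4, so single regions rested on few reads. A fit with a library left out keeps 1 library in that stage, so its spread comes from the other stage only. Numbers of calls moved more than directions, and no called result changed sign. Of the values followed one by one under the alternatives (the 9 windows, the Srf motif and those regions that the main setting called), 81 fell short of the threshold that the main setting passed and 4, all of windows, newly passed it, while regions first called under an alternative stand only in the numbers of calls. Gene windows over all nuclei (4174 called) came to 2625 within 1000 bases of the start and 1812 to 4463 with a library left out, and the contractile genes called (3) to 1 with DESeq2 and 1 to 4. Basal-like windows (1015) came to 322 with DESeq2, 53 near the start and 547 to 866, and contractile genes (6) to 0 near the start and 3 to 6. Distal regions over all nuclei (43423) came to 24872 with DESeq2, 15301 at a mean of at least 50 reads and 30355 to 42172, and those of the contractile genes (21) to 8, 7 and 10 to 23. Promoter regions (3992) came to 2622 with DESeq2 and 2514 to 3057, and contractile ones (2) to 1, to 0 at 50 reads, and 1 to 2. Basal-like distal regions (3008) came to 1459, 179 and 0 to 3876, and contractile ones (3) to 1, 0 and 0 to 5, or 6 with no filter. The lineage contrast (1179) came to 607 without a library term and 535 to 749, with 4 to 6 contractile genes, and motifs (290) to 209 to 265. Within the fetal stage, counting near the start gave 1 gene higher in class 4 over 9 (2 over the window) and 2 in class 12 over 9 (0). Links numbered 254 at 0.1 and 3 at 0.5, against 64. The causes were not tested.

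Equal replicate numbers share only a number in the labels. The differences between replicates correlated across genes between the stages at 0.27 over all nuclei and 0.079 in basal-like nuclei. The replicate block raised the gene windows called over all nuclei to 6421 and called Myh11 (-0.40, adjusted p = 0.0105).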
